A study of Rattus norvegicus with 16 samples.

Results

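The genes described here are 9 genes of glycogen metabolism and of the muscle form of AMP-activated protein kinase (AMPK): Ppp1r3a, Ppp1r3c, Pygm, Gys1, Phkg1, Phka1, Phkb, Prkag3 and Prkaa2. They were chosen by their values in these same arrays, in the comparisons of denervated with naïve skin described below, so their values and limma calls are given as a description, with no p-value, and support nothing. Of the 9 genes, 8 were measured, by 11 probesets, among 14217 genes in all. Ppp1r3c, a glycogen-targeting subunit of protein phosphatase 1, had no probeset in the array annotation used and has no value here. Pygm was read by 3 probesets and Phka1 by 2, and the median over a gene's probesets was used.

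Expression was measured in dorsal hairy skin of adult female Sprague-Dawley rats on Affymetrix Rat Genome arrays, with 1 array per sample. Naïve rats (n = 6) had no surgery. The other rats were anesthetized, the skin was opened on the right side, and the left T9 and T10 cutaneous nerves, with a more caudal pair, were ligated and cut, while the T11 nerves stayed intact. The more rostral denervated zone, that of T9 and T10, was sampled after 7 days (n = 5) or 14 days (n = 5). There was no sham group, so an effect of surgery and an effect of nerve loss cannot be told apart. The cutaneous trunci muscle inserts into the dermis there and was part of every sample, in an amount that was not recorded. Its motor nerve was not cut, per the description of the series. In such bulk samples, fewer cells of a type and less RNA per cell cannot be told apart. The p-values measure only the spread between these samples, and precision is limited by how many arrays there were. All levels below are log2 RMA values, and a difference of 1 on that scale is a doubling of the signal. Gene values ran from 3.31 to 14.15, with a median of 6.88.

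Skeletal muscle stores glucose as glycogen and draws on it when fibres contract. Glycogen synthase (Gys1) builds the polymer and glycogen phosphorylase (Pygm) breaks it down. Phosphorylase kinase, made of a catalytic γ subunit, regulatory α and β subunits and calmodulin, switches phosphorylase on in response to calcium, while protein phosphatase 1, held on the glycogen particle by targeting subunits such as Ppp1r3a, reverses that switch and activates the synthase. AMPK, an energy sensor of catalytic α, scaffold β and nucleotide-binding γ subunits, binds glycogen, and its γ3 subunit (Prkag3) is largely restricted to fast-twitch skeletal muscle. Ppp1r3a, Pygm, Phkg1, Phka1, Prkag3 and Prkaa2 are mainly muscle forms, whereas Gys1 and Phkb are expressed in many tissues.

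The promoters of 3 muscle forms and of 1 broadly expressed subunit are shown as examples, not as a contrast between muscle forms and other forms. Each is the 250 bases upstream of the transcription start in RefSeq on the rat GRCr8 assembly, read 5′ to 3′ on the gene's strand. The windows lie at chr4:43946237-43946486 (minus strand, Ppp1r3a), chr1:213119555-213119804 (plus strand, Pygm), chr9:83753630-83753879 (minus strand, Prkag3) and chr7:131859485-131859734 (minus strand, Prkag1). Capitals mark E-boxes (CANNTG, the core bound by myogenic helix-loop-helix factors) and, in Ppp1r3a, a match to the site of MEF2, a muscle transcription factor. TATAAA overlaps that match on the opposite strand.
Ppp1r3a: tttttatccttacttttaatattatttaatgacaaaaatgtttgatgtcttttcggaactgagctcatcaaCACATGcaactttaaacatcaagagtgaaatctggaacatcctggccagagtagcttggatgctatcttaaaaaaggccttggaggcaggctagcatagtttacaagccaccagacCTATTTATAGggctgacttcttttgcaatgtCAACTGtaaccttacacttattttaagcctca
Pygm: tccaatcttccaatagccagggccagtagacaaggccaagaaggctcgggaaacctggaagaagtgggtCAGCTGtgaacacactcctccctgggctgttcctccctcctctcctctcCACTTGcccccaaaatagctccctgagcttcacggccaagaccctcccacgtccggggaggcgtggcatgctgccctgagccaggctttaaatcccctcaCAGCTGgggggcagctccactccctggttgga
Prkag3: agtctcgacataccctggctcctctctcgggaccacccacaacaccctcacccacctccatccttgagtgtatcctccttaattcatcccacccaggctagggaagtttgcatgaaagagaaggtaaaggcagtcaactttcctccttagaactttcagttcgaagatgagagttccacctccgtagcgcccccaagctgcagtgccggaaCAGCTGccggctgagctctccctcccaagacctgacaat
Prkag1: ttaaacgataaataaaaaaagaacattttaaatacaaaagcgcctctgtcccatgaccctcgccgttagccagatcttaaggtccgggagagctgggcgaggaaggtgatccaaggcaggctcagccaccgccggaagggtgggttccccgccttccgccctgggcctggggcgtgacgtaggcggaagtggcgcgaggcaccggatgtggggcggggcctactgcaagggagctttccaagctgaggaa
Motifs were searched on both strands in all 27457 upstream windows and in those of the 9 named genes and of 9 of 10 counterparts, genes for other forms of the same subunits (Ppp1r3b had no window). CANNTG stood in 65.2% of all windows, in 7 of 9 of the named genes and in 4 of 9 counterparts. CAGCTG, each match of which is also counted as CANNTG, stood in 11.9% of all windows, in 4 of 9 of the named genes and in 2 of 9 counterparts. The MEF2 match stood in 3.07% of all windows and among the named genes in Ppp1r3a alone, at position -63 from its start. CATTCC, the MCAT element, stood in 11.8% of all windows and in 0 of 9. TATAAA stood in 13.1% of all windows and in 1 of 9, again Ppp1r3a. Prkag3 held CAGCTG at position -39 and Pygm at positions -181 and -32, while Phkb, Prkaa2 and Prkag1 held no E-box in these windows. E-boxes also stood in the windows of the counterparts Ppp1r3d, Pygl, Gys2 and Prkaa1. These matches describe the letters only.

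The naïve arrays did not form 1 cluster, and this bears on every difference below. For 8 of 8 measured genes, naïve replicates 1 and 2 had the lowest naïve levels and replicates 4 and 5 the highest. The share of all genes with this order was not counted. A sarcomere score (the mean over 27 of 28 listed muscle markers of each level minus its mean over all arrays, in log2 units) was -0.24 in naïve replicate 1, -0.75 in replicate 2 and between 0.89 and 1.30 in replicates 3 to 6. It ran from -0.72 to 0.64 at 7 days and from -0.73 to -0.36 at 14 days, so every 14 day array lay below naïve replicate 1 and within the naïve range. The mean sarcomere marker level was 9.96 to 12.02 in naïve, 10.00 to 11.36 at 7 days and 9.98 to 10.36 at 14 days, so skeletal muscle RNA was plentiful in all samples. A hair follicle score (8 of 16 listed markers measured) ran the other way. It was 1.85 in naïve replicate 1, 2.07 in replicate 2, between -4.16 and -3.91 in replicates 3 to 6, -0.62 to 1.72 at 7 days and 1.86 to 1.96 at 14 days. A macrophage score (13 markers) was -2.08 to 0.59 in naïve, 0.33 to 1.09 at 7 days and -0.04 to 0.35 at 14 days, with 11 of 13 markers higher than naïve at 7 days and 2 of 13 at 14 days by limma. The part of muscle content, hair follicle genes and macrophages in the results was not tested.

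At 14 days all 8 measured genes had a lower mean than in naïve skin, by 5.24-fold for Ppp1r3a at one end and 1.91-fold for Gys1 at the other. All 8 were lower by limma at an adjusted p under 0.05, a call that 14.6% of all genes also had (23.5% were called in either direction), and 8 of 8 at an unadjusted p under 0.05 (20.8% of all genes). The median log2 difference over the 8 genes was -1.68, against 0.02 over all genes. At 7 days all 8 means lay below naïve as well, with a median of -0.996 (all genes -0.02), but 0 of 8 were called lower by limma at an adjusted p under 0.05 (2.66% of all genes) and 3 of 8 at an unadjusted p under 0.05 (13.6% of all genes). From 7 to 14 days the median was -0.67 (all genes -0.01), with 0 of 8 called (10.1% of all genes) and 0 of 8 at an unadjusted p under 0.05 (18.7% of all genes). The fit pooled the spread of all groups, naïve arrays included, and so took it as equal. With only the 2 groups compared, 6 of 8 had an unadjusted p under 0.05 by limma, and 17.7% of all genes were called lower at the adjusted threshold. Because the comparisons chose the genes, nothing is read from these counts. The comparisons with naïve skin share the 6 naïve arrays, and in both of them the groups overlapped for 8 of 8 genes, always through naïve replicate 2 and in part through replicate 1. Of all genes, 6.66% had every 14 day array below every naïve array and 1.35% every 7 day array.

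With each array left out in turn, the median log2 difference of the 8 genes at 14 days ran from -2.02 to -1.46, and 8 of 8 kept an unadjusted p under 0.05. The number past the adjusted threshold was 4 when naïve replicate 4, 5 or 6 or 14 day replicate 1, 2 or 4 was left out, where 8.56% to 10.4% of all genes were called lower, and 5 without 14 day replicate 3. At 7 days the number called lower was 7 without naïve replicate 2 (8.38% of all genes) and 1 without naïve replicate 1 (5.58% of all genes). Without naïve replicates 1 and 2 together, 8 of 8 were called lower at both times (21.8% of all genes at 14 days and 16.4% at 7 days) and the median log2 difference was -2.37 at 14 days. Without naïve replicates 4 and 5 together, 1 was called at 14 days (4.98% of all genes) and the median was -1.14. Both the counts of the 8 genes and the share of all genes called changed between these fits, but not always together. With the array median subtracted, 10.5% of all genes were called lower at 7 days, while 4 of 8 had an unadjusted p under 0.05. When the model held the sarcomere score as a term, the median at 14 days was -0.23 and limma called 0 (1 at an unadjusted p under 0.05), with 1.79% of all genes called lower. When it held the hair follicle score instead, the median was -0.24 and limma called 0 (1 at an unadjusted p under 0.05), with 1.59% of all genes called lower. The spread between arrays shrank with time for 8 of 8 genes, from naïve to 7 days and again to 14 days. The share of all genes with this order of spread was not counted. Over all probesets except controls, the lowest correlation between arrays of a group was 0.931 in naïve, 0.977 at 7 days and 0.993 at 14 days.

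**Figure D1:**
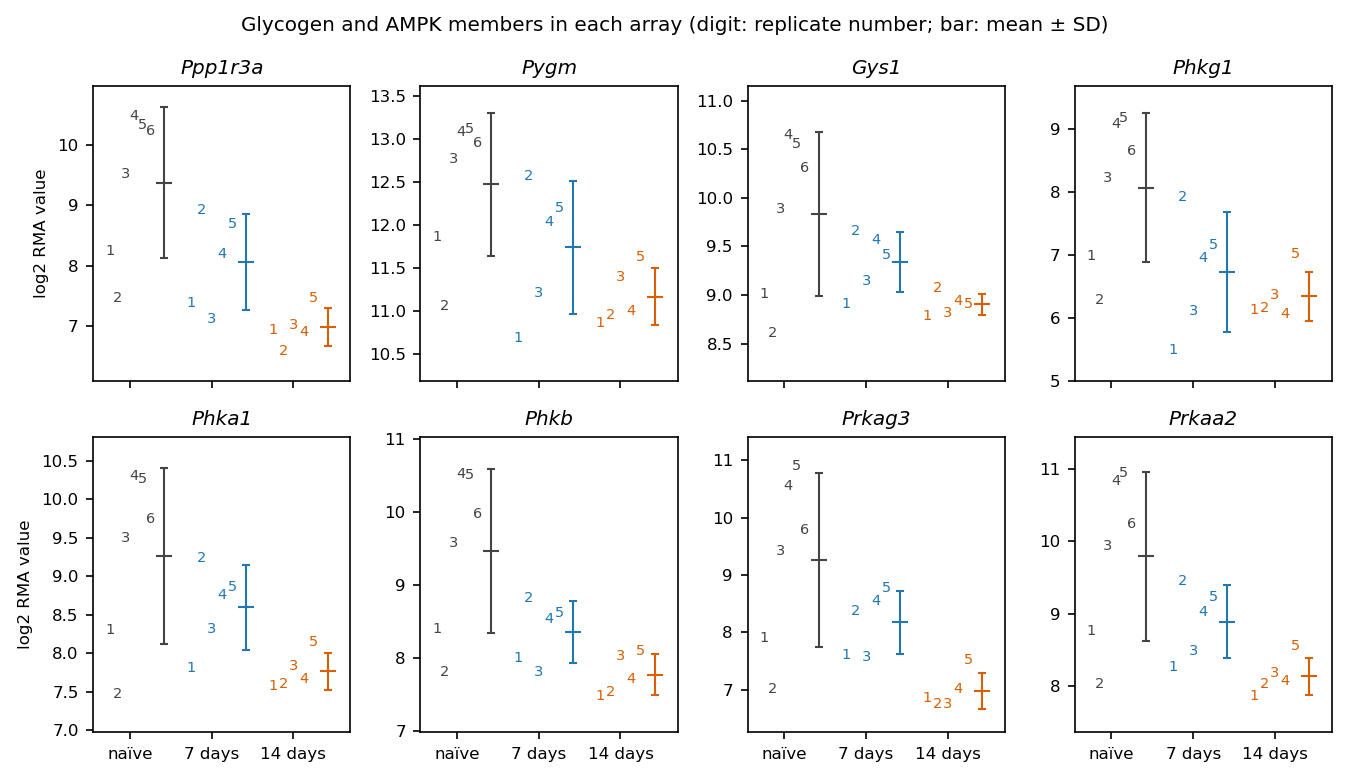
Log2 RMA level of each of the 8 measured genes in every array, with each panel on its own axis. Each digit is 1 array, printed as its replicate number and coloured by group, and the bars are the group mean ± SD. In every panel naïve replicate 2 lies within or below the range of the 14 day arrays, while naïve replicates 3 to 6 lie above all denervated arrays. How many of all genes have this order was not counted.

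Ppp1r3a, the muscle subunit that tethers protein phosphatase 1 to glycogen, had the largest difference of the 8. Its log2 level was 8.24, 7.47, 9.51, 10.48, 10.33 and 10.23 in naïve replicates 1 to 6, 7.39, 8.92, 7.13, 8.19 and 8.69 at 7 days, and 6.94, 6.59, 7.02, 6.91 and 7.47 at 14 days. Every 14 day array except replicate 5 lay below all naïve arrays, and replicate 5 fell just above naïve replicate 2. The mean was 9.38 ± 1.25 (SD, n = 6) in naïve skin, 8.06 ± 0.79 (n = 5) at 7 days and 6.99 ± 0.32 (n = 5) at 14 days. The log2 difference from naïve was -1.31 at 7 days and -2.39 (SE 0.508) at 14 days, and -1.08 from 7 to 14 days. At 14 days it was -3.15 without naïve replicates 1 and 2, -1.88 without naïve replicates 4 and 5, -0.83 with the sarcomere score in the model and -0.86 with the hair follicle score.

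Gys1, the synthase of muscle and most other tissues, had the smallest difference. Its log2 level in naïve skin had a lowest value of 8.61, a median of 10.09 and a highest value of 10.65. It was 8.90, 9.66, 9.15, 9.56 and 9.41 at 7 days and 8.79, 9.07, 8.82, 8.94 and 8.91 at 14 days. The 14 day arrays were tightly grouped and lay between naïve replicate 2 and naïve replicate 3. The mean was 9.84 ± 0.85 (SD, n = 6), 9.34 ± 0.31 (n = 5) and 8.90 ± 0.11 (n = 5) in the same order, giving a log2 difference from naïve of -0.50 at 7 days and -0.93 (SE 0.313) at 14 days. The 14 day difference was -0.01 with the sarcomere score in the model and turned to 0.10 with the hair follicle score, the only change of sign among 29 alternatives for this gene.

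Pygm, muscle glycogen phosphorylase, was among the brightest genes of the arrays. Its log2 level in naïve skin had a lowest value of 11.05, a median of 12.86 and a highest value of 13.11. It was 10.68, 12.57, 11.21, 12.04 and 12.19 at 7 days and between 10.86 and 11.62 at 14 days. All denervated arrays lay below naïve replicates 3 to 6, and 7 day replicates 1 and 3 were as low as those at 14 days. The mean was 12.47 ± 0.84 (SD, n = 6) in naïve skin, 11.74 ± 0.77 (n = 5) at 7 days and 11.17 ± 0.33 (n = 5) at 14 days, with a log2 difference from naïve of -0.73 at 7 days and -1.30 (SE 0.391) at 14 days. Its 3 probesets had log2 differences of -1.10, -1.25 and -1.30 at 14 days.

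The phosphorylase kinase genes followed the same order of arrays. Phkg1, the muscle catalytic γ subunit, had naïve log2 levels with a lowest value of 6.29, a median of 8.43 and a highest value of 9.18. Its levels were 5.49, 7.92, 6.11, 6.96 and 7.16 at 7 days and 6.12, 6.15, 6.36, 6.07 and 7.01 at 14 days. Phkg1 was the gene with the largest share of its difference already present at 7 days, since its log2 difference from naïve was -1.34 at 7 days and -1.73 (SE 0.519) at 14 days, and the lowest array of all was 7 day replicate 1. Phka1, the muscle α subunit, had log2 levels from 7.47 to 10.31 in naïve skin, from 7.81 to 9.24 at 7 days and from 7.58 to 8.15 at 14 days. Its log2 difference from naïve was -0.67 at 7 days and -1.50 (SE 0.439) at 14 days, and its probesets gave -1.35 and -1.65 at 14 days. Phkb, the β subunit shared by many tissues, had log2 levels from 7.81 to 10.52 in naïve skin, from 7.81 to 8.82 at 7 days and from 7.48 to 8.09 at 14 days. Its log2 difference was -1.11 at 7 days and -1.69 (SE 0.424) at 14 days, so this broadly expressed subunit had a difference close to those of its muscle partners.

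Prkag3, the γ3 subunit of AMPK, varied most among naïve arrays. Its log2 level was 7.91, 7.02, 9.41, 10.55, 10.90 and 9.78 in naïve replicates 1 to 6, 7.61, 8.37, 7.57, 8.55 and 8.77 at 7 days, and 6.86, 6.76, 6.76, 7.02 and 7.52 at 14 days. It was the only one of the 8 genes whose 14 day arrays all lay below its 7 day arrays, an order that 11.6% of all genes had. The mean was 9.26 ± 1.52 (SD, n = 6) in naïve skin, 8.17 ± 0.55 (n = 5) at 7 days and 6.98 ± 0.32 (n = 5) at 14 days. The log2 difference was -1.09 at 7 days and -2.28 (SE 0.563) at 14 days against naïve, a 4.85-fold lower level at 14 days, and -1.19 from 7 to 14 days. At 14 days it was -3.18 without naïve replicates 1 and 2, -1.55 without naïve replicates 4 and 5, -0.64 with the sarcomere score in the model and -0.52 with the hair follicle score.

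Prkaa2, the α2 catalytic subunit of AMPK that predominates in skeletal and heart muscle, had log2 levels from 8.03 to 10.95 in naïve skin. Its levels were 8.26, 9.45, 8.48, 9.02 and 9.23 at 7 days and 7.85, 8.02, 8.17, 8.07 and 8.55 at 14 days. The 14 day arrays lay around naïve replicate 2 and below the other naïve arrays. The mean was 9.79 ± 1.17 (SD, n = 6) in naïve skin, 8.89 ± 0.50 (n = 5) at 7 days and 8.13 ± 0.26 (n = 5) at 14 days, and the log2 difference from naïve was -0.90 at 7 days and -1.66 (SE 0.443) at 14 days.

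The differences were set beside those of muscle structure, in marker lists chosen with earlier results of these data known. Of 27 sarcomere markers, 15 were lower at 14 days by limma and 27 of 27 had a mean below naïve, with a median log2 difference of -1.04. At 7 days 0 of 27 passed (5 lower at an unadjusted p under 0.05), with a median of -0.57. Fast and slow fibre markers had the same median of -0.94 at 14 days. Of the fast markers 8 of 9 passed, and of the slow markers 0 of 7 passed (3 lower at an unadjusted p under 0.05).

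After the sarcomere score was subtracted from each array's level, the 8 genes spread out. For Ppp1r3a the subtracted value differed from its naïve mean by -0.72 at 7 days and by -1.28 at 14 days. Its 14 day arrays (7.20 to 8.04) all lay below its naïve arrays (8.23 to 9.43). The share of all genes without overlap after this subtraction was not counted, so nothing is read from that order. For Prkag3 the differences were -0.50 and -1.16, with 14 day arrays at 7.12 to 8.09 overlapping naïve arrays at 7.77 to 9.60. In both genes the lowest naïve value was that of replicate 2, so the subtraction did not level the naïve arrays. Phkg1, Phkb, Prkaa2 and Phka1 had 14 day differences of -0.61, -0.58, -0.54 and -0.38, against naïve standard deviations of 0.39, 0.36, 0.39 and 0.36. Pygm had -0.19 (naïve SD 0.12) and Gys1 0.18 (naïve SD 0.20). By these means the genes furthest below the mean of the sarcomere markers were the glycogen-targeting subunit and the γ3 subunit. Both also had the largest differences before the subtraction. Single sarcomere markers had 14 day log2 differences from -1.93 to -0.28. The brightest markers, and Pygm with a naïve mean of 12.47, sit near the top of the scale, where differences may be compressed, which was not measured. With a score from the 20 dimmer markers the 14 day values were -1.13 for Ppp1r3a, -1.02 for Prkag3, -0.47 for Phkg1, -0.43 for Phkb, -0.40 for Prkaa2, -0.24 for Phka1, -0.05 for Pygm and 0.33 for Gys1.

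**Figure D2:**
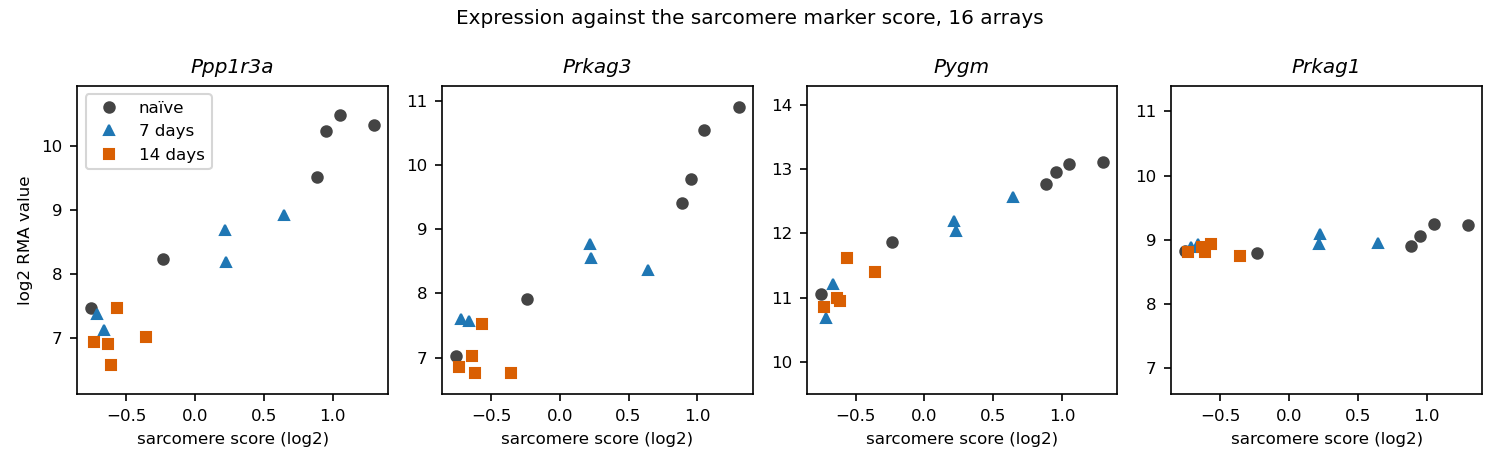
Log2 RMA level of Ppp1r3a, Prkag3, Pygm and the counterpart Prkag1 (vertical axes, equal spans) against the sarcomere score of the same array (horizontal axis, log2 units), with 1 point per array coloured by group. The first 3 genes are higher in arrays of higher score, from 7.47 to 10.48 among naïve arrays for Ppp1r3a, while Prkag1 spans less, from 8.75 to 9.24 over all arrays, and its highest levels are also in naïve arrays of high score.

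The counterparts are 10 genes for the same subunits that are not the muscle form, some widely expressed and others best known from liver or brain. They belong to pathway lists chosen with earlier results of these data known, so their calls give no independent support. Of these, 3 rose at 14 days by limma (8.95% of all genes, adjusted p over all genes) and 0 fell (14.6% of all genes, and 1 of 10 lower at an unadjusted p under 0.05). Over the 10 counterparts the median log2 difference at 14 days was 0.18, against -1.68 for the 8 genes. Pygb, the brain form of phosphorylase, rose by 0.59 (SE 0.159, adjusted p = 0.0198), from 8.29 ± 0.39 (SD, n = 6) to 8.89 ± 0.23 (n = 5). Ppp1r3b, a targeting subunit best known from liver, rose by 0.55 (SE 0.170, adjusted p = 0.0336), and Phka2, the liver α subunit, by 0.19 (SE 0.0573, adjusted p = 0.0323). Both of these were dim, with means of 5.05 to 5.62 in every group. At 7 days only Ppp1r3b passed, at 0.57 (adjusted p = 0.0453), and from 7 to 14 days only Phka2, at 0.33 (adjusted p = 0.00458). The 3 calls at 14 days were lost without naïve replicates 4 and 5 together and when the model held either score. The call of Pygb was also lost without 14 day replicate 2, that of Phka2 without any 1 of 7 arrays (naïve replicates 3, 4 and 6 and 14 day replicates 1, 3, 4 and 5) and that of Ppp1r3b without any 1 of naïve replicates 3 to 6 or of the 14 day arrays. The 7 day call of Ppp1r3b was lost without naïve replicate 3, 4, 5 or 6, without 7 day replicate 1, 3, 4 or 5 and without any 1 of the 14 day arrays, while the 14 against 7 day call of Phka2 was kept under all 28 alternatives.

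The AMPK counterparts did not pass. Prkag1, the γ subunit of most tissues, had a log2 difference of -0.17 at 14 days (95% confidence interval -0.35 to 0.01, adjusted p = 0.138). Prkag2 had -0.01 (-0.13 to 0.11, adjusted p = 0.938) and Prkaa1, the α1 subunit, 0.18 (-0.03 to 0.39, adjusted p = 0.178). Prkaa1 lay below the median of all gene values (6.88), with a mean of 5.92 in naïve skin and 6.10 at 14 days. Phkg2, the liver γ subunit, had 0.20 (-0.02 to 0.42), Pygl, liver phosphorylase, 0.20 (-0.14 to 0.55), and Ppp1r3d -0.27 (-0.48 to -0.05, adjusted p = 0.0669). Gys2, the liver synthase, had -0.14 (-0.38 to 0.10) but a mean of 4.64 to 4.78, close to the 5th percentile of all gene values (4.23), where a change would be hard to see.

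The same values were taken as a difference within each array, muscle form minus counterpart. The difference Prkag3 minus Prkag1, set to 0 at the naïve mean, was -1.04 ± 0.52 (SD, n = 5) at 7 days and -2.11 ± 0.26 (n = 5) at 14 days, and the naïve arrays ran from -2.06 to 1.42. Prkaa2 minus Prkaa1 was -1.84 at 14 days, Phkg1 minus Phkg2 -1.93 and Phka1 minus Phka2 -1.68. Ppp1r3a minus Ppp1r3b was -2.94, with 14 day arrays from -3.37 to -2.39 and a lowest naïve value of -2.39. In each of these pairs the range among naïve arrays was wider than the difference between the group means.

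**Figure D3:**
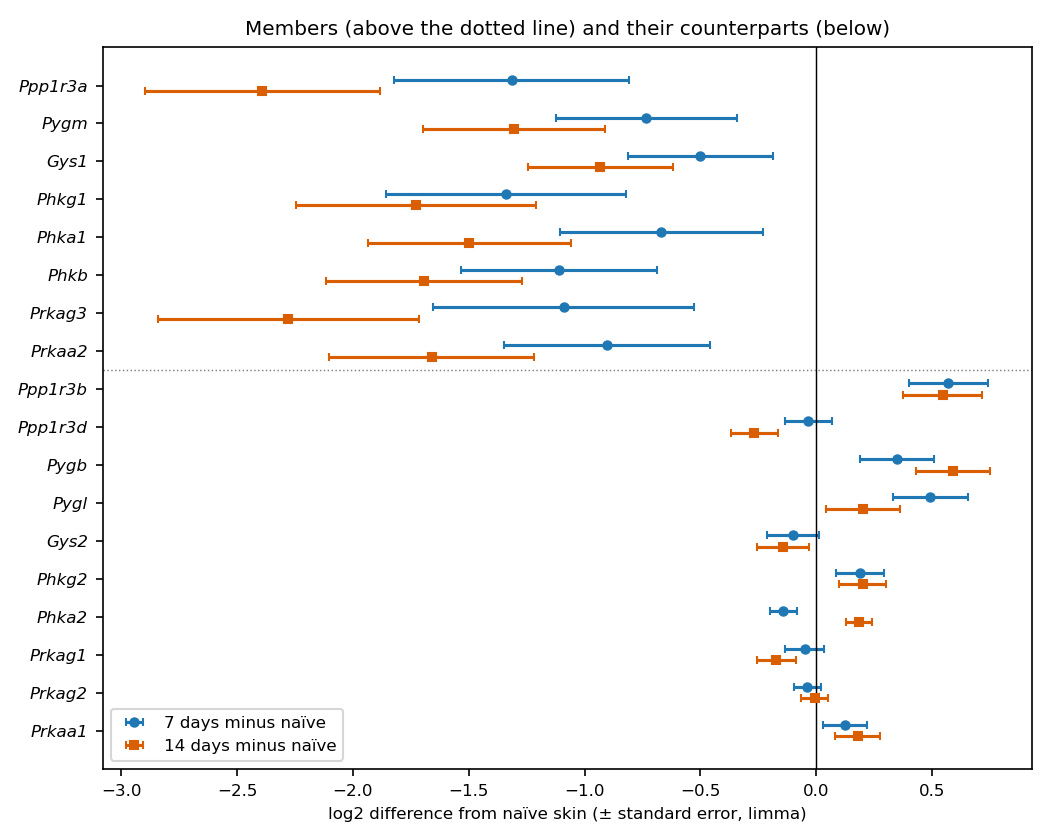
Log2 difference from naïve skin at 7 and 14 days for the 8 measured genes and their 10 counterparts, with bars for 1 standard error. At 14 days the 8 genes lie between -2.39 and -0.93 and the counterparts between -0.27 and 0.59.

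The pathway around these genes was described from lists of 62 further genes, of which 56 were measured. The lists were chosen with earlier results of these data known. Their counts and p-values are therefore a description and give no independent support. At 14 days 15 of 56 fell (14.6% of all genes), 4 rose (8.95% of all genes) and 37 did not pass, with a median log2 difference of -0.12. The number that rose was 7 without naïve replicate 1 (14.5% of all genes), 8 without naïve replicate 2 (15.1% of all genes), and 1 or 2 without any 1 of naïve replicates 3 to 6 or of the 14 day arrays. The genes of glycogen synthesis gave 4 of 6 lower. Pgm1, phosphoglucomutase, fell by 1.43 (adjusted p = 0.0266). Gyg1, the glycogenin that primes the polymer, fell by 1.32 (adjusted p = 0.0152). Ugp2, which makes UDP-glucose, fell by 1.21 (adjusted p = 0.0140) and Gbe1, the branching enzyme, fell by 1.16 (adjusted p = 0.00970). For Gbe1 the 14 day arrays (highest 8.11) lay just below the naïve arrays (lowest 8.20), an order that 6.66% of all genes had. The muscle glucose transporter Slc2a4 fell by 1.32 (adjusted p = 0.0181), also narrowly without overlap (highest 14 day array 7.81, lowest naïve array 7.84). Stbd1, which anchors glycogen to membranes, fell by 0.82 (adjusted p = 0.0331).

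The partners of protein phosphatase 1 gave 3 of 8 lower and 1 higher (Ppp1r3b). Ppp1r1a, an inhibitor of the phosphatase abundant in muscle, fell by 1.71 (adjusted p = 0.0200). The catalytic subunit Ppp1cb fell by 0.56 (SE 0.0799, adjusted p = 0.000977) and the catalytic subunit Ppp1cc fell by 0.31 (SE 0.0409, adjusted p = 0.000769). These were the only calls of the 19 that held under all 29 alternatives, both scores included. Ppp1cc was at 10.89 ± 0.04 (SD, n = 6) in naïve skin, 10.98 ± 0.06 (n = 5) at 7 days and 10.58 ± 0.04 (n = 5) at 14 days, so its naïve arrays were not divided as those of the 8 genes were. Ppp1cb was at 9.79 ± 0.14, 9.48 ± 0.16 and 9.23 ± 0.07 and had fallen at 7 days too, by 0.31 (adjusted p = 0.0255). At 7 days the Ppp1cb call was lost without naïve replicate 4 or 5 or 7 day replicate 4 or 5. The other 17 calls at 14 days were each lost when the model held either score, and those of Pgm1, Stbd1, Prkab1, Tbc1d1 and Tbc1d4 also when naïve replicate 4, 5 or 6 or 14 day replicate 2 or 4 was left out.

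The lists around AMPK were mixed in direction. Of 7 upstream kinases and partners, Stradb fell by 1.04 (adjusted p = 0.0144) and Cab39l, another partner of the kinase LKB1, fell by 0.43 (adjusted p = 0.00352). Of 10 targets, Ppargc1a, a coactivator of mitochondrial genes, fell by 0.79 (adjusted p = 0.00421). This call was lost when the highest-mean probeset per gene was used. Ppargc1a was dim, with a mean of 5.87 in naïve skin and 5.08 at 14 days (25th percentile of all gene values 5.47). Tbc1d4, which restrains glucose transporter traffic, fell by 0.58 (adjusted p = 0.0284), while its relative Tbc1d1 rose by 0.35 (adjusted p = 0.0261). The scaffold Prkab1 fell by 0.22 (adjusted p = 0.0444) and the calmodulin gene Calm2 fell by 0.29 (adjusted p = 0.0222). Among 8 genes for kinases of glycogen synthase, catalytic and regulatory subunits together, 0 passed limma. At an unadjusted p under 0.05, 1 was lower, a regulatory subunit, and 1 was higher, a catalytic gene.

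At 7 days 2 of 56 pathway genes fell (2.66% of all genes) and 2 rose (7.85% of all genes). Ppargc1a fell by 0.92 (adjusted p = 0.00333) and Tbc1d1 rose by 0.63 (adjusted p = 0.00324), both without overlap between the groups, and the others were Ppp1cb and Ppp1r3b. Of all genes, 1.35% had every 7 day array below every naïve array, and the share with every 7 day array above was not counted. With the array median subtracted 12 fell and 2 rose (10.5% and 6.69% of all genes), and after a second quantile normalization 6 fell and 2 rose (5.13% and 6.69% of all genes). Leaving out naïve replicate 2 gave 13 lower and 6 higher (8.38% and 10.4% of all genes), and leaving out naïve replicate 1 gave 5 lower and 7 higher (5.58% and 10.6% of all genes). The number lower was 1 without naïve replicate 4 or 5 or 7 day replicate 4 or 5, and the number higher was 1 without naïve replicate 4, 5 or 6, 7 day replicate 1, 3 or 4 or any 1 of the 14 day arrays. From 7 to 14 days 5 fell (10.1% of all genes) and 3 rose (8.86% of all genes), against 2 lower and 4 higher with the array median subtracted (7.07% and 14.6% of all genes) and 1 lower and 4 higher after quantile normalization (5.16% and 6.35% of all genes). From 7 to 14 days the number lower was 9 without naïve replicate 2 and 2 or 3 without 7 day replicate 2, 3 or 4 or any 1 of the 14 day arrays. The number higher was 1 without 7 day replicate 2 or 4 or 14 day replicate 2 or 3.

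**Figure D4:**
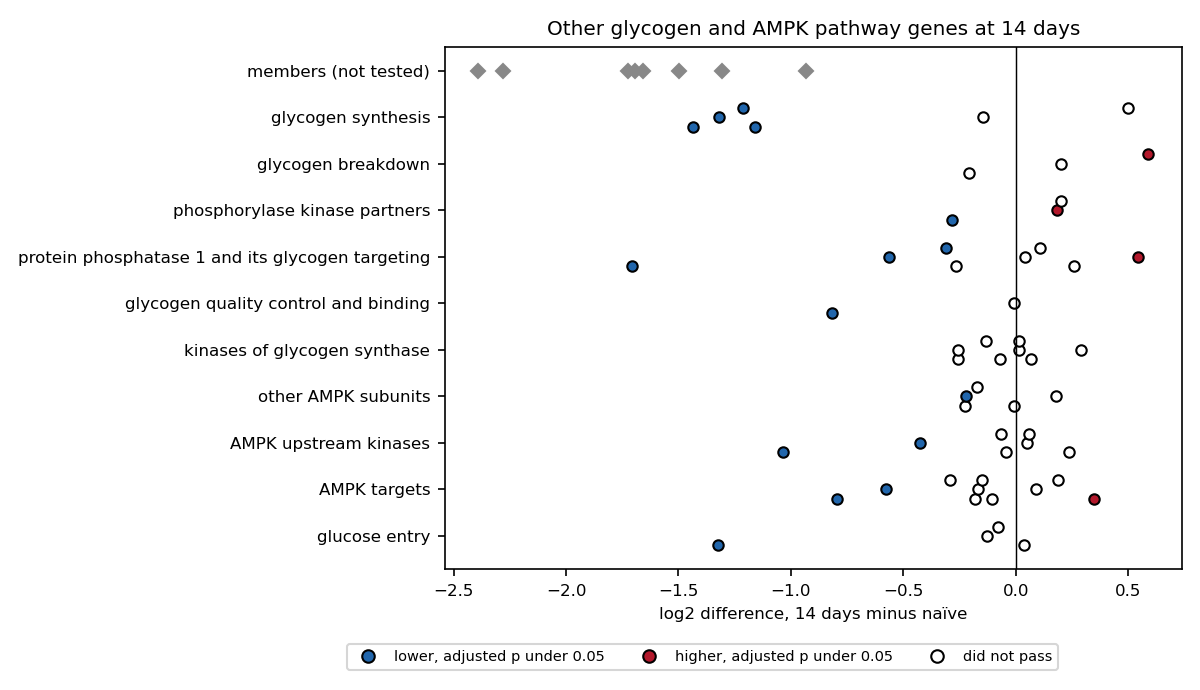
Log2 difference at 14 days against naïve skin for the 8 measured genes and the 56 other measured pathway genes, by list. Colour marks the limma call of the pathway genes, and the genes of glycogen synthesis include 4 of 6 that fell.

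The genes outside the set whose log2 levels were most like those of Ppp1r3a and Prkag3 were found by Pearson correlation over the 16 arrays. For Ppp1r3a these were Pfkm, the muscle phosphofructokinase (r = 0.984), Araf (0.979), Txlnb (0.979), Mypn, a sarcomere protein (0.979), and Ldb3, a Z-disc protein (0.978). For Prkag3 these were Vezf1 (0.991), Art1 (0.989), Abra, an actin-binding muscle protein (0.988), Park7 (0.988) and Unc45b, a myosin chaperone (0.985). These values describe 16 arrays that share the division of the naïve group and the differences between groups.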

How the data were processed

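Levels were measured in 16 skin samples. Robust multi-array averaging (RMA) was applied by the authors, who deposited log2 values of 31099 probesets. The submitters' processing notes name R 3.0.1. No version of RMA is given in the sources used here. RMA places all arrays on 1 distribution. Whether differences of the brightest probesets were compressed was not measured.

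Left out were 57 control probesets, 9780 without a gene and 436 with several. Symbols were updated through Entrez identifiers, and the median was taken per gene (14217 genes, 4525 with more than 1 probeset). Groups were compared in R 4.3.3 with limma 3.58.1, 1 mean per group over all 16 arrays, Benjamini-Hochberg over all genes, adjusted p under 0.05. The procedure was tested on simulated data with independent genes and the same spread in every group. These arrays differ in both respects, so that test does not give the rate of false calls here. The labels give no batches. The lowest correlation between arrays of a group was 0.931 in naïve, 0.977 at 7 days and 0.993 at 14 days.

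The genes, pathway lists and marker lists were chosen with earlier results of these data known. Named are the 9 genes, their 10 counterparts, in each pathway list up to 4 genes past the threshold with the largest statistic, and the 5 genes most correlated with Ppp1r3a and Prkag3. Some entries of the pathway lists are not reported here. Alternatives changed the probeset rule, scaling, dim genes, weights, moderation, arrays, thresholds and covariates, and left out arrays. The score from dimmer sarcomere markers was chosen after seeing the data.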

Additional observations from a re-analysis of the deposited data

Results flagged for a closer look

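Among the 8 measured genes and their 10 counterparts, 3 of 54 group checks found an array apart from the rest of its group, where chance gives about 1 in 20. Gys2 at 7 days was 4.15 in replicate 5 and 4.76 to 4.84 in the others. Prkag2 at 7 days was 6.68 in replicate 3 and 6.89 to 6.98 in the others. Prkaa1 at 14 days was 5.96 in replicate 4 and 6.13 to 6.15 in the others. None of the 8 measured genes had such an array in a group.

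For 8 pathway genes the difference from naïve skin changed between the times, by limma on 14 against 7 days. Phka2 was higher at 14 days by 0.33 (adjusted p = 0.00458), Gsk3a, a kinase of glycogen synthase, by 0.39 (adjusted p = 0.0285) and Ulk1, an autophagy kinase, by 0.27 (adjusted p = 0.0352). Calm2 had a log2 difference of -0.37 (adjusted p = 0.0109), Ppp1cb -0.26 (adjusted p = 0.0432), Ppp1cc -0.40 (adjusted p = 0.000371), Csnk2a1, a casein kinase subunit, -0.45 (adjusted p = 0.0480) and Prkab1 -0.25 (adjusted p = 0.0394). The calls of Phka2 and Ppp1cc held under all 28 and 29 alternatives run, and that of Calm2 under all but quantile normalization. Gsk3a lost its call without 7 day replicate 2 or 4 or 14 day replicate 2 or 3. Ppp1cb and Csnk2a1 lost theirs without any 1 of the 14 day arrays, and Prkab1 and Ulk1 without 7 day replicate 2, 4 or 5 or 14 day replicate 3 or 5. The calls of Ppp1cb, Csnk2a1 and Prkab1 were also lost with the array median subtracted and after quantile normalization. Those of Csnk2a1 and Ulk1 were also lost with the highest-mean probeset.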

How the results depend on the processing

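The 8 measured genes kept a mean below naïve at 14 days under all 29 alternatives, except Gys1, which was 0.10 when the model held the hair follicle score. At 7 days, with the hair follicle score in the model, only 4 of the 8 had a log2 difference below 0, and the median was 0.007. With the sarcomere score 7 of the 8 lay below 0 at 7 days, with a median of -0.20. The counts of calls depended on the processing. Counts are given for the 8 genes (lower) and for the pathway genes outside them. At an adjusted p under 0.01, 1 of the 8 was lower at 14 days, with 5 pathway genes lower and 0 higher, 1 and 1 at 7 days, and 1 and 1 from 7 to 14 days. With the array median subtracted, 12 pathway genes were lower at 7 days and 2 from 7 to 14 days, and after quantile normalization 6 and 1. Array weights gave 8 of the 8 at 7 days and 3 from 7 to 14 days, with 26 pathway genes lower and 12 higher at 14 days, 16 and 11 at 7 days, and 11 lower from 7 to 14 days. The sarcomere score, and the score of dimmer markers, gave 0 of the 8 at 14 days, 2 pathway genes lower and 0 higher, and 9 lower from 7 to 14 days. The hair follicle score gave 0 of the 8, 2 lower and 0 higher at 14 days, 1 higher at 7 days and 9 lower from 7 to 14 days. The highest-mean probeset gave 8 lower from 7 to 14 days, trend and robust moderation 3. With only the groups compared, 6 of the 8 and 14 pathway genes were lower from 7 to 14 days, with 1 lower and 1 higher at 7 days. With the dimmest genes left out (below the 25th percentile), 2 were higher at 14 days, 1 lower and 1 higher at 7 days, and 3 lower from 7 to 14 days. Without naïve replicates 1 and 2, 8 of the 8 were lower at 7 days and 4 from 7 to 14 days, with 25 pathway genes lower and 13 higher at 14 days, 17 and 12 at 7 days, and 13 lower from 7 to 14 days. Without naïve replicates 4 and 5, 1 of the 8 was lower at 14 days, with 5 pathway genes lower and 0 higher, 1 and 1 at 7 days, and 9 lower from 7 to 14 days.

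Leaving out 1 array at a time, the 8 genes gave 4 to 8 calls at 14 days, 0 to 7 at 7 days and 0 from 7 to 14 days. The pathway genes gave 11 to 19 lower and 1 to 8 higher at 14 days, 1 to 13 and 1 to 7 at 7 days, and 2 to 9 and 1 to 3 from 7 to 14 days. The cause of these shifts was not tested.

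The replicate numbers did not pair the samples: of 15 pairs with the same number, 8 had a correlation over 0.1 (range -0.552 to 0.583), and 5 of 15 arrays correlated best with their own number. With a replicate block, 4 of the 8 were called at 14 days, with 9 pathway genes lower and 1 higher, 1 and 1 at 7 days, and 3 lower from 7 to 14 days. Probesets under the 5th percentile of 4.23 or near the top of the scale may show differences poorly.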
